A study of Mus musculus with 18 samples.

Results

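The genes described here are 36 genes of the endoplasmic reticulum (ER), the compartment in which secreted and membrane proteins are folded, and of the unfolded protein response, which adjusts the capacity of that compartment. They were taken from a list by gene name, or older name, in the scanner files, and each was read from the probe with the highest mean intensity. All 36 were on the arrays, with 65 of the 41174 gene probes, and 34 of them were among the 14664 genes tested. They were described in 4 branches: 15 chaperones and folding enzymes, 8 genes of ER-associated degradation, 10 stress sensors, transcription factors and their targets, and 3 genes of the translocon, the channel through which nascent chains enter the ER.

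In the ER, chaperones such as BiP (encoded by Hspa5) bind unfolded chains, protein disulfide isomerases form and rearrange disulfide bonds, and chains that fail to fold are carried back to the cytosol and degraded. When unfolded protein accumulates, the membrane sensors IRE1 (Ern1), PERK (Eif2ak3) and ATF6 act through the transcription factors XBP1, ATF4 and the cleaved form of ATF6, which raise transcription of chaperone and degradation genes and, through ATF4, of stress targets such as Ddit3 and Trib3. Thyrocytes secrete thyroglobulin, a very large glycoprotein rich in disulfide bonds, and C cells secrete calcitonin, so both cell types send much protein through the ER.

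Thyroids of male C57BL/6 mice were either normal or, in the labels' word, dissected, which here means taken after partial thyroidectomy. From frozen sections, the central area of a lobe, where C cells lie, and the peripheral area were captured by laser microdissection, which gave 5 central and 3 peripheral areas of normal thyroid and 5 of each from dissected thyroid. Each captured RNA was amplified, labelled with Cy5 and hybridised to 1 Agilent 2-colour array together with a commercial mixed mouse RNA in Cy3 that was common to all 18 arrays, and no dyes were swapped. The interval after surgery, the part of the gland removed and the number of mice are not given in the sources used here, so areas of 1 mouse may recur within and between groups. The p-values below therefore measure the spread between captured areas and would be too small if areas of 1 group shared a mouse. Sharing between groups was not modelled. It could make the p-values of comparisons between central and peripheral areas too large. The values are log2 ratios of Cy5 over Cy3 after normalisation within each array, and a difference between groups is a difference of their mean log2 ratios. Fewer cells of a type and less RNA per cell cannot be told apart in such areas.

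The promoters of several of these genes carry the ER stress response element (ERSE), through which the response raises chaperone transcription in mammals, and the stretches that hold it are printed because those genes recur in the results. The element was searched as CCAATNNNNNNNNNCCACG, in which CCAAT is bound by NF-Y, N stands for any base and CCACG is read by ATF6 and XBP1. RefSeq promoters (GRCm38.p6), from 250 bases before to 50 bases after each annotated start site, matched 31 of the 36 genes by symbol. Hyou1, Manf, Derl1, Atf6 and Sec61a1 had no entry. An exact ERSE on either strand was found in 9 of the 31 (29.0%), against 0.137% of all 27025 genes in the table. In the stretches below, written 5′ to 3′ along the gene, capitals mark the outer parts of the element. They read CCAAT and CCACG where it lies on the gene's strand, and CGTGG and ATTGG where it lies on the other.
Hspa5: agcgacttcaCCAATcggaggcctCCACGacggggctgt
Hsp90b1: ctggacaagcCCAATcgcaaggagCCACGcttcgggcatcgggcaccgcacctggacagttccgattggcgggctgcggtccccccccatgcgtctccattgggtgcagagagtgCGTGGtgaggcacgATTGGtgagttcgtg
Calr: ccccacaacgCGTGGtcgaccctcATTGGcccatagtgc
Canx: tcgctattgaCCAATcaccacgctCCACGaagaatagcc
Pdia6: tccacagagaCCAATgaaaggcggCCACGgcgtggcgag
Dnajc3: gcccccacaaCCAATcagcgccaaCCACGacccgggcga
Creld2: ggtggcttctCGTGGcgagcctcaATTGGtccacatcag
Syvn1: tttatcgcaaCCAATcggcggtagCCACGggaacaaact
Derl3: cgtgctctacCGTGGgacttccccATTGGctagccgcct
They lie at chr2:34772015-34772053 (plus strand), chr10:86705523-86705666 (minus), chr8:84847065-84847103 (minus), chr11:50325790-50325828 (minus), chr12:17266481-17266519 (plus), chr14:118937817-118937855 (plus), chr15:88819510-88819548 (plus), chr19:6046522-6046560 (plus) and chr10:75893232-75893270 (plus), in that order, all upstream of the start site. The Hsp90b1 stretch of 144 bases holds 2 elements in opposite orientation, and the other stretches hold 1 each.

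The shorter ERSE-II, ATTGGNCCACG, was found in Dnajb11 and Herpud1, 2 of 31 (6.45%) against 0.0444% of all genes. In Herpud1, whose product is an ER membrane protein of the degradation machinery, it lies on the plus strand within chr8:94386367-94386397, upstream of the start site, and its outer parts are again in capitals.
Herpud1: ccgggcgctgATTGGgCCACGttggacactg
The core of the unfolded protein response element, TGACGTG, was found in Hspa5, 1 of 31 (3.23%), against 2.22% of all genes. The site of the C/EBP and ATF family read by ATF4, TGATGNAA, was found in Herpud1, Trib3, Chac1 and Asns, 4 of 31 (12.9%), against 4.51%. All motifs were searched on both strands, and no match of 1 motif overlapped a match of another in these promoters. A match describes the sequence and was not tested for binding.

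**Figure D1:**
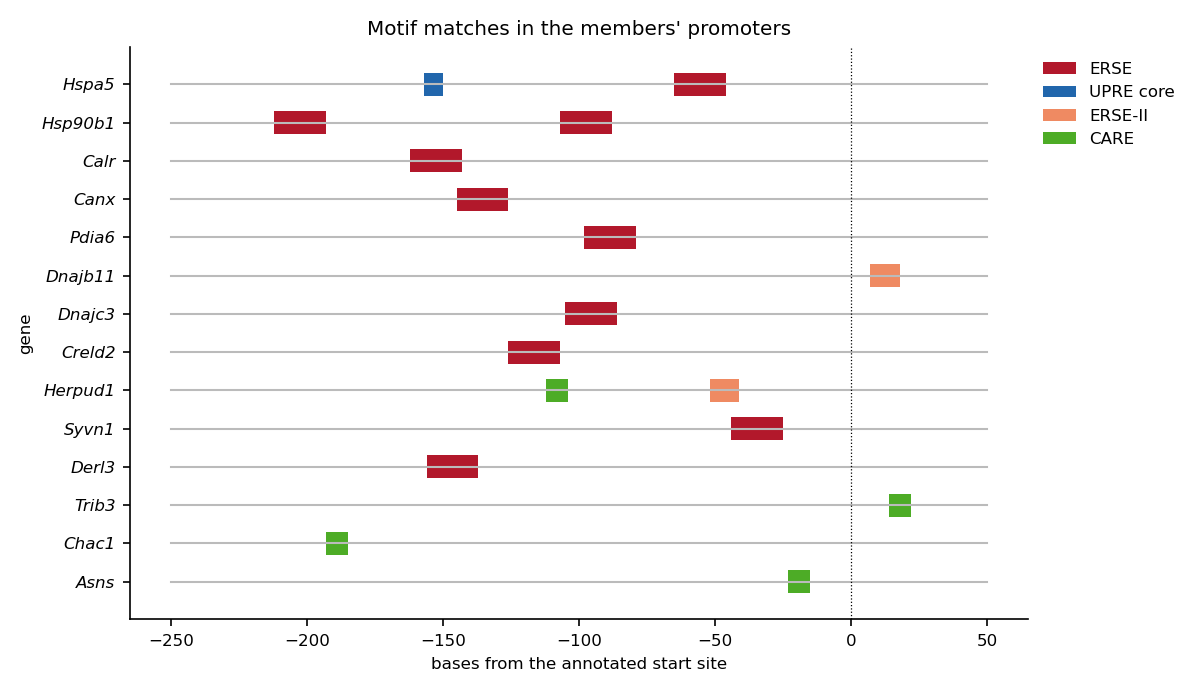
Matches of 4 motifs (coloured blocks, either strand) in the RefSeq promoters of the 14 genes with a match; the x axis is the distance in bases from the annotated start site, and each grey line is the 300-base window. The ERSE matches all lie upstream of the start site, and Hsp90b1 has 2.

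Several properties of the arrays bear on all values below. The percentage of gene probes with Cy5 well above background ran from 24.7% to 44.0%, and 4 arrays were clearly weaker than the rest: normal peripheral 1 (24.7%), dissected central 2 (28.1%), dissected peripheral 1 (28.7%) and dissected central 1 (29.5%). Each slide held the groups in fixed positions, so position on the slide and group cannot be told apart. The Cy3 channel went against its label: thyroglobulin (Tg) gave a Cy3 intensity of 21185 to 161222 and the calcitonin gene Calca 18233 to 494049, while Alb, a liver gene, stayed between 99.0 and 149 and Syp, a brain gene, between 103 and 133. Of the labelled reference tissues' genes looked at, Mbp was bright in Cy3 on all 18 arrays, at 809 to 4799, and these genes were chosen after their values had been seen. The log2 ratios are therefore relative to a reference that holds thyroid messages, and no sign of a ratio is read here as a difference between thyroid and other tissue. Thyroglobulin was well above background in Cy5 on all arrays (164772 to 440074), as the labelled tissue would have it. The parathyroid genes stood out on normal central 3, where their summed Cy5 intensity reached 58521 against 238 to 472 on the other 17 arrays.

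Detection differed between the branches. All 15 chaperones and folding enzymes were tested, 7 of 8 degradation genes, 9 of 10 sensors, factors and targets, and all 3 translocon genes. Edem2, which trims glycans on misfolded proteins, was well above background on 1 array, and Ppp1r15a (GADD34, which reverses the translational arrest set by PERK) on none of the 18, and neither was tested. Atf4 and Ddit3 were tested but were well above background on 6 arrays each, so their ratios carry little signal. Of the tested members, 12 had a total of 20 further probes that passed the filter. In 4 of them, Dnajc3, Hsp90b1, Pdia6 and Ssr1, at least 1 further probe had the opposite sign in the peripheral comparison.

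After partial thyroidectomy, most members had higher means in the peripheral area. Of the 34 tested, 29 had a positive difference, dissected minus normal, with a median of 0.37, where 51.0% of all 14664 genes had one and the median of all genes was 0.0056. None passed limma's test at an adjusted p under 0.05, and none of the 14664 genes did (0%). At an unadjusted p under 0.05, 12 members were higher and none was lower, which is read against 8.35% of all genes in either direction, 4.43% higher and 3.91% lower. Those 12 were 6 of the 15 chaperones and folding enzymes (Hspa5, Manf, Dnajb9, Pdia6, Hsp90b1 and Canx), 5 of the 7 tested degradation genes (Herpud1, Edem1, Syvn1, Derl1 and Derl2) and the sensor Atf6. In 8 members every dissected array lay above every normal one and in none below, against 4.21% of all genes whose arrays did not overlap in either direction. Without normal peripheral 1, the weakest array, the unadjusted count was 8 against 2.28% of all genes, and 7 of the 8 were among the 12. Without dissected peripheral 5 it was also 8, against 4.48% of all genes. The branch medians were 0.45 for chaperones and folding, 0.36 for degradation, 0.22 for sensors, factors and targets, and 0.043 for the translocon.

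**Figure D2:**
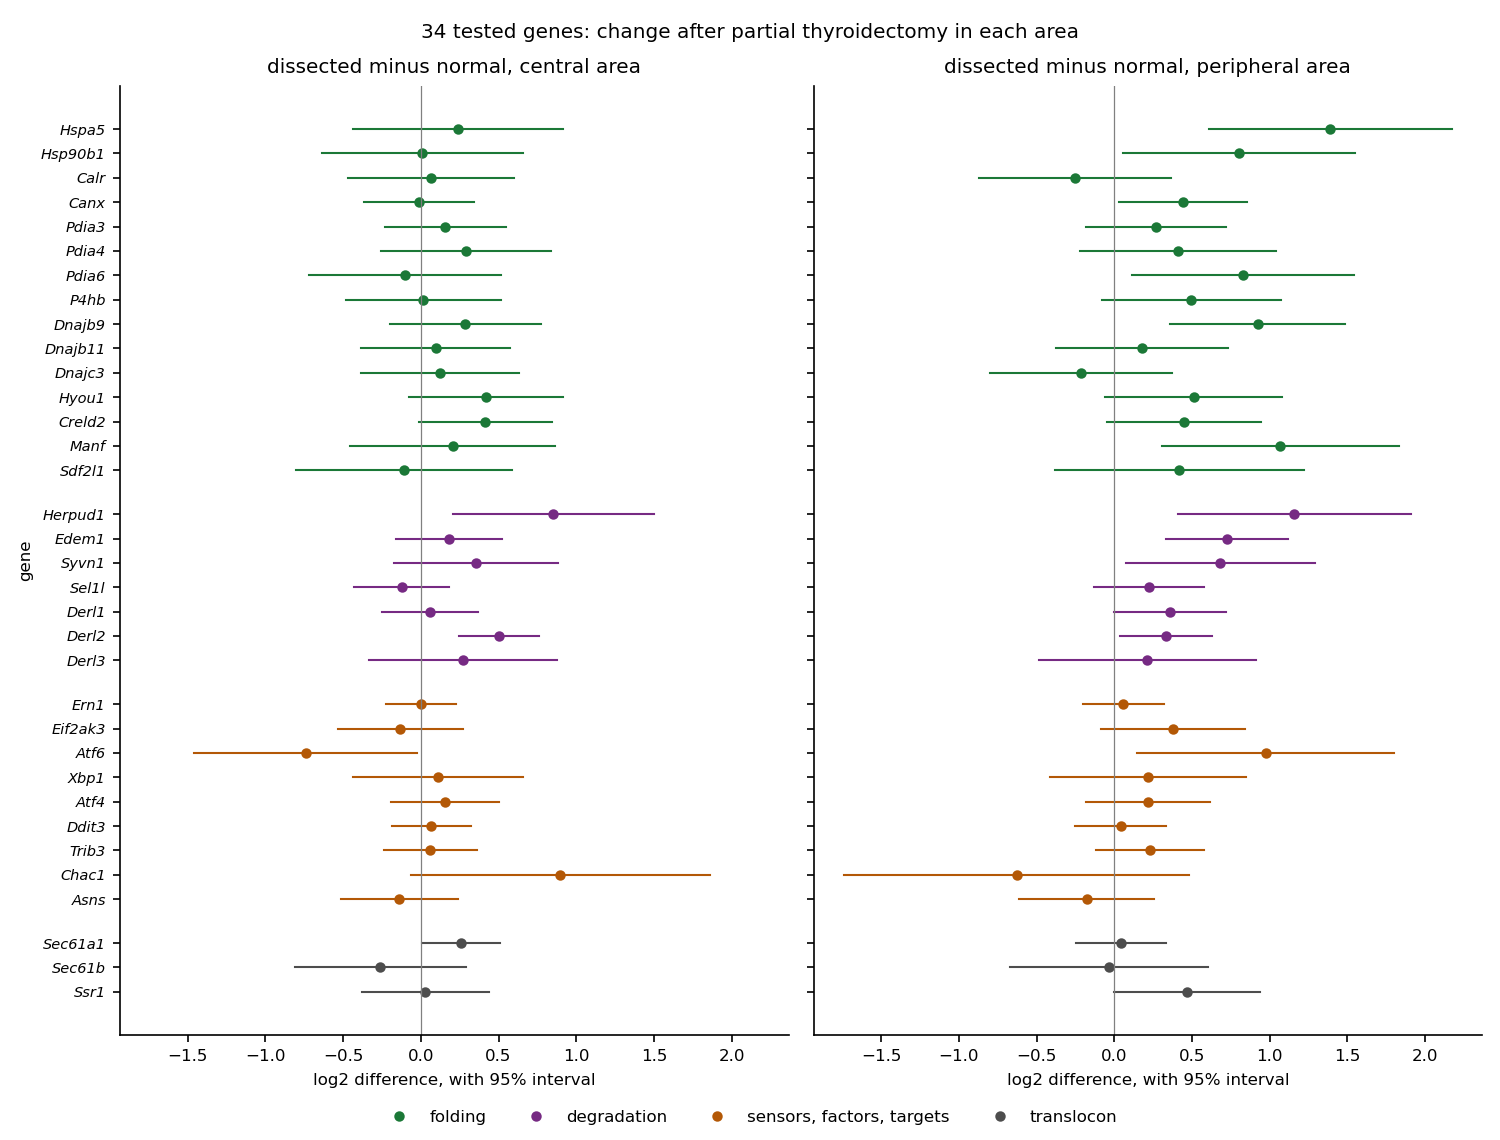
Log2 difference (points) with its 95% interval (lines), dissected minus normal, of the 34 tested genes in the central area (left) and in the peripheral area (right), coloured by branch. In the peripheral area 29 points lie right of 0, and in the central area 26 do, closer to 0.

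Hspa5, the gene of the chaperone BiP, had the largest peripheral difference of all members. Its log2 ratios were -1.91, -0.52 and -0.19 on the 3 normal peripheral arrays and 0.48, 0.37, 0.86, -0.092 and 0.98 on the 5 dissected peripheral arrays. Every dissected array lay above every normal one, and the lowest value by far was that of normal peripheral 1. The group means were -0.87 ± 0.91 and 0.52 ± 0.42 (SD), a difference of 1.39 (95% interval 0.61 to 2.17), or 2.62-fold, with a limma adjusted p of 0.386. Without normal peripheral 1 the difference was 0.87 (adjusted p = 0.954). In the central area the values were 0.39, -0.47, 0.42, -0.13 and -0.79 in normal and -0.29, 0.18, 0.83, -0.086 and -0.022 in dissected thyroid, which overlap, and the difference was 0.24 (-0.44 to 0.91).

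Hsp90b1, which encodes the ER-resident HSP90 chaperone GRP94, was less clear. Its log2 ratios were -1.40, -0.47 and 0.25 in normal and -0.30, 0.13, 0.17, 0.30 and 1.01 in dissected peripheral areas. The groups overlap, since normal peripheral 3 lay above 3 of the 5 dissected arrays, and the difference of 0.80 (0.055 to 1.55) was 0.37 without normal peripheral 1. A further probe of the gene, well above background on all 18 arrays, gave -0.13. In the central area the values were 0.59, -0.49, -0.16, 0.16 and -0.18 in normal and -0.83, -0.0048, 0.39, 0.25 and 0.15 in dissected thyroid, with a difference of 0.0085 (-0.64 to 0.66).

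Dnajb9 encodes ERdj4, an ER co-chaperone of BiP. Its log2 ratios were -1.12, -0.28 and -0.14 in normal and 0.31, 0.83, 0.38, 0.13 and 0.40 in dissected peripheral areas, without overlap. The means were -0.51 ± 0.53 and 0.41 ± 0.26 (SD), a difference of 0.92 (0.36 to 1.49), with a limma adjusted p of 0.454. All 3 of its probes had the same sign, at 0.92, 0.58 and 0.44, and without normal peripheral 1 the probe used gave 0.62. In central areas the values were 0.77, -0.27, 0.0086, -0.25 and -0.48 in normal and -0.077, 0.42, 0.56, 0.32 and -0.016 in dissected thyroid, and the difference was 0.29 (-0.20 to 0.77).

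Manf, which encodes an ER-resident trophic factor released under stress, had log2 ratios of -1.43, -1.10 and -0.70 in normal and -0.29, -0.30, 0.61, -0.79 and 0.72 in dissected peripheral areas. Only dissected peripheral 4 reached into the normal range, and the difference was 1.07 (0.31 to 1.83, adjusted p = 0.524, limma) with all arrays and 0.89 without normal peripheral 1. In central areas its difference was 0.21 (-0.45 to 0.87).

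Canx encodes calnexin, the membrane lectin that holds glycoproteins during folding. Its log2 ratios were -0.76, -0.057 and -0.0052 in normal and 0.11, 0.35, 0.12, 0.070 and 0.18 in dissected peripheral areas. The arrays did not overlap, but the normal value farthest from the others was again that of normal peripheral 1, without which the difference of 0.44 was 0.20. Pdia6, a protein disulfide isomerase, showed the same layout, with -2.01, -0.41 and -0.18 in normal and 0.085, -0.12, 0.088, -0.17 and -0.063 in dissected peripheral areas, and its difference of 0.83 was 0.26 without that array. One of its further probes, well above background on all arrays, gave -1.03 in the same comparison, so the probes of Pdia6 disagree. In central areas the values of Canx were 0.52, 0.077, 0.41, -0.14 and 0.12 in normal and 0.089, 0.23, 0.17, 0.59 and -0.15 in dissected thyroid, and those of Pdia6 0.90, -0.15, 0.10, -0.11 and -0.38 and -0.45, 0.061, 0.49, -0.055 and -0.20. Their central differences were -0.011 and -0.10.

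Of the other chaperones and folding enzymes, Hyou1 (an HSP70-like chaperone), P4hb and Pdia4 (protein disulfide isomerases), Creld2 (an ER stress-induced protein), Sdf2l1 (a partner of BiP and its co-chaperones), Pdia3 (ERp57, the isomerase that works with calnexin) and Dnajb11 (ERdj3, a BiP co-chaperone) had peripheral differences of 0.51, 0.50, 0.41, 0.45, 0.42, 0.27 and 0.18, each with a 95% interval that includes 0. Calr (calreticulin, the soluble lectin partner of calnexin) and Dnajc3 (a BiP co-chaperone) were the 2 of this branch below 0, at -0.25 and -0.21. The 3 further probes of Dnajc3 were all above 0. The median 95% half-width over members was 0.57 in this comparison.

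**Figure D3:**
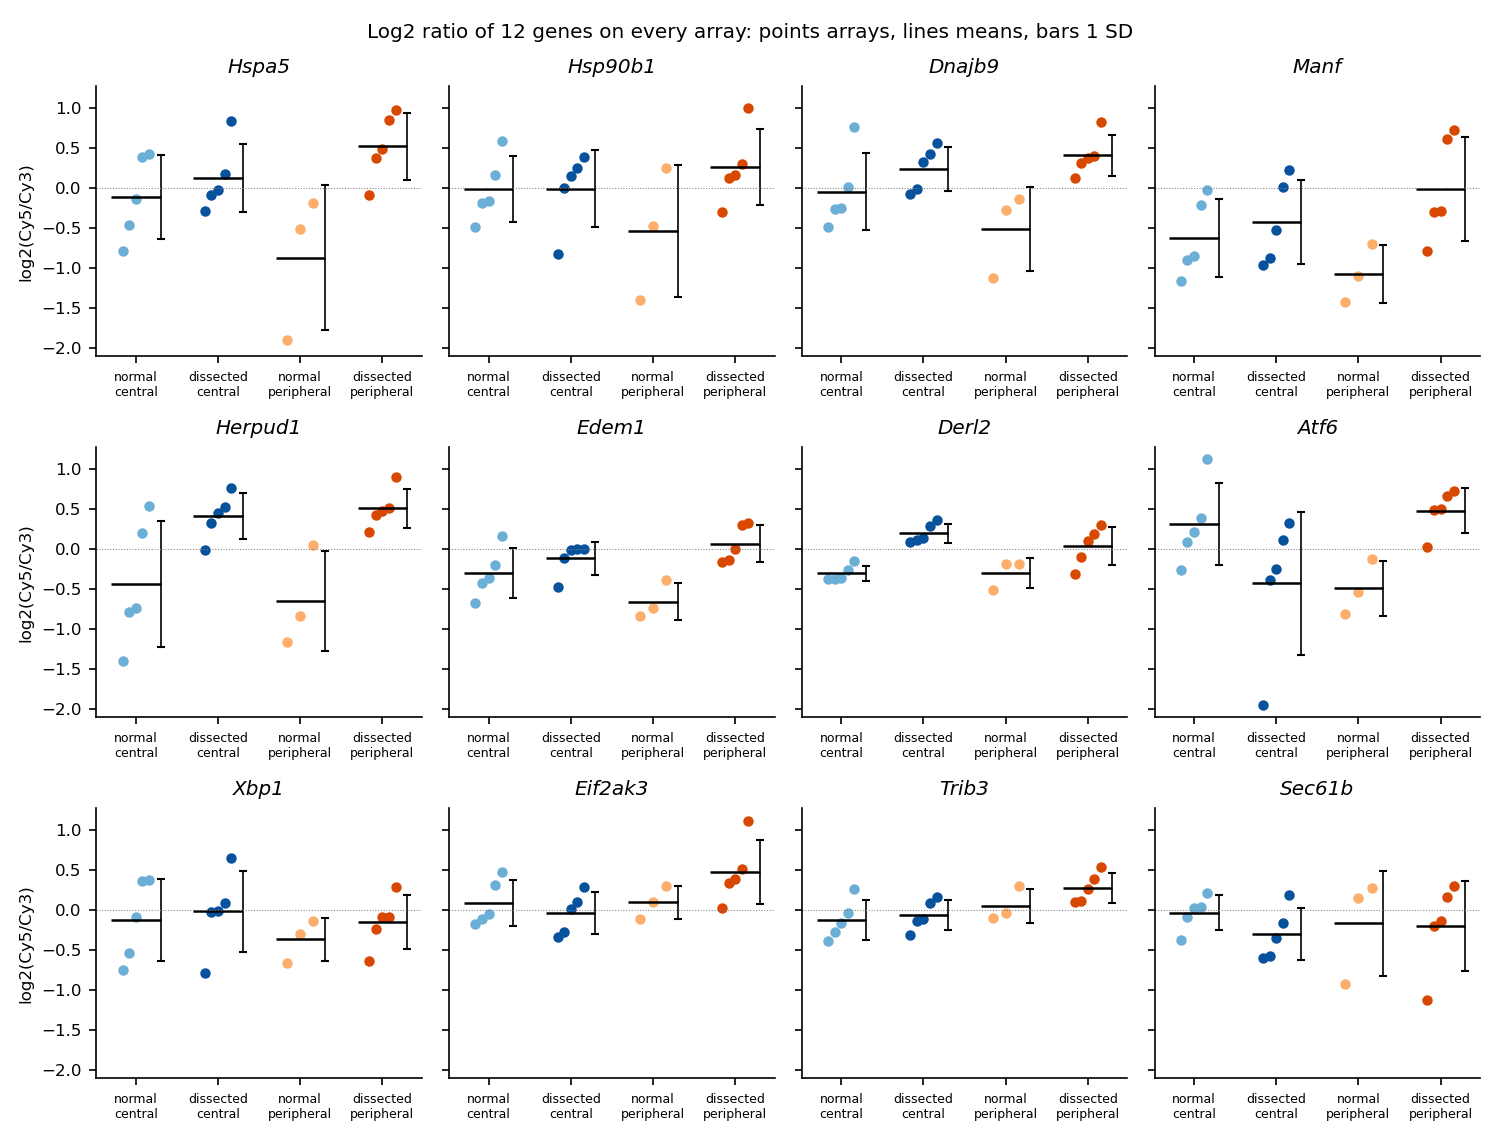
Log2 ratio of Cy5 over Cy3 (y axis) of 12 genes on every array, by group (x axis); points are arrays, black lines group means and bars 1 SD (n = 5, 5, 3 and 5 from left to right). Hspa5, Dnajb9, Herpud1, Edem1 and Atf6 have dissected peripheral arrays that all lie above the normal peripheral ones. Derl2 has dissected central arrays that all lie above the normal central ones.

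The degradation genes were the branch with the most even result, 7 of 7 tested members being above 0 in the peripheral and 6 of 7 in the central area. Herpud1 had log2 ratios of -1.17, -0.83 and 0.046 in normal and 0.51, 0.90, 0.48, 0.43 and 0.21 in dissected peripheral areas. Every dissected array lay above every normal one, and the difference was 1.16 (0.41 to 1.91), or 2.23-fold, with a limma adjusted p of 0.469 and 0.90 without normal peripheral 1. In central areas its values were 0.54, -0.79, -0.74, 0.19 and -1.41 in normal and -0.0076, 0.77, 0.44, 0.52 and 0.32 in dissected thyroid. Normal central 1 and 4 lay within the dissected range and the other normal arrays below it, and the difference was 0.85 (adjusted p = 0.792, limma). Neither difference of Herpud1 passed the test.

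Edem1, which encodes a lectin that delivers misfolded glycoproteins to degradation, had log2 ratios of -0.84, -0.74 and -0.39 in normal and 0.30, 0.32, -0.14, -0.16 and 0.0025 in dissected peripheral areas. The groups did not overlap, and the difference was 0.72 (0.33 to 1.12), the smallest unadjusted p among members in this comparison, with an adjusted p of 0.386 (limma). It was 0.63 without normal peripheral 1, and both further probes had the same sign, at 0.25 and 0.33. The central values were 0.16, -0.37, -0.42, -0.20 and -0.67 in normal and -0.48, -0.0012, -0.0072, 0.0032 and -0.11 in dissected thyroid, a difference of 0.18 (-0.16 to 0.52).

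Derl2 encodes derlin-2, a membrane protein of the channel through which misfolded chains leave the ER, and gave the clearest central difference. Its log2 ratios were -0.15, -0.37, -0.38, -0.26 and -0.36 in normal and 0.14, 0.092, 0.29, 0.11 and 0.36 in dissected central areas. Every dissected array lay above every normal one, the only member of which this was so in the central area, where 1% of all genes had arrays that did not overlap. The means were -0.31 ± 0.10 and 0.20 ± 0.12 (SD), a difference of 0.50 (0.24 to 0.76), or 1.42-fold, the 12th smallest p of 14664 genes in that comparison, with an adjusted p of 0.692 (limma). Peripheral values were -0.19, -0.52 and -0.19 in normal and -0.10, -0.31, 0.30, 0.19 and 0.10 in dissected thyroid, a difference of 0.33 (0.034 to 0.63). Its second probe had the same sign in both areas, at 0.31 centrally and 0.25 peripherally. Within the 5 slides that held both central groups, the Derl2 difference ran from 0.29 to 0.72. Its sign there was fixed by the lack of overlap and adds nothing to it.

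Syvn1, which encodes the ubiquitin ligase HRD1, differed by 0.68 (0.073 to 1.29) in the peripheral and 0.35 (-0.17 to 0.88) in the central area. Derl1 and Derl3 encode the other derlins. Derl1 differed by 0.36 (0.0012 to 0.72) and 0.059, Derl3 by 0.21 and 0.27, and Sel1l, the partner of HRD1, by 0.23 and -0.12. Without normal peripheral 1, the peripheral difference of Syvn1 was 0.38.

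Among the sensors, Atf6 differed most, and in opposite directions in the 2 areas. Its log2 ratios were -0.13, -0.54 and -0.81 in normal and 0.66, 0.49, 0.73, 0.50 and 0.020 in dissected peripheral areas, without overlap, a difference of 0.97 (0.14 to 1.80, adjusted p = 0.574, limma). In central areas they were 0.39, -0.26, 0.21, 1.12 and 0.088 in normal and 0.11, -0.39, 0.32, -0.25 and -1.95 in dissected thyroid, a difference of -0.74 (-1.46 to -0.022). The value of dissected central 5 lay far below the others, and without it the central difference was -0.36. The central change minus the peripheral change was -1.71 (-2.81 to -0.62), with a limma adjusted p of 0.79 (none of the 14664 genes passed, 0%), and -1.33 without dissected central 5. A dimmer Atf6 probe, well above background on 13 arrays, gave 0.31 centrally and 0.17 peripherally. For the central change minus the peripheral change it gave 0.15. The probes thus differ in sign in the central area and in the difference between the areas.

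Eif2ak3 (PERK) had log2 ratios of -0.11, 0.30 and 0.10 in normal and 0.020, 1.11, 0.39, 0.33 and 0.52 in dissected peripheral areas, and 0.48, -0.12, -0.049, 0.31 and -0.17 and 0.012, 0.29, -0.27, 0.10 and -0.34 in the central areas of normal and dissected thyroid. Both pairs of groups overlap, with differences of 0.38 (-0.083 to 0.84) and -0.13 (-0.53 to 0.27). Ern1 (IRE1) differed by 0.059 (-0.20 to 0.32) and 0.0015 (-0.22 to 0.23), with the narrowest intervals of the 34 members, at a probe well above background on 13 arrays.

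The transcription factors downstream of the sensors had differences between 0.041 and 0.22 in both areas. Xbp1, whose messenger RNA is spliced by IRE1, had log2 ratios of -0.14, -0.30 and -0.67 in normal and -0.093, -0.23, -0.083, -0.64 and 0.29 in dissected peripheral areas. In central areas it had 0.38, -0.090, 0.36, -0.54 and -0.75 and -0.015, -0.022, 0.093, -0.79 and 0.64, in the same order. The groups overlap in both areas, the differences were 0.22 (-0.41 to 0.85) and 0.11 (-0.44 to 0.66), and the single probe reads the gene without telling the spliced form from the unspliced. Atf4 had log2 ratios of -0.070, 0.051 and -0.15 in normal and 0.028, -0.29, 0.62, 0.40 and 0.047 in dissected peripheral areas, and -0.078, -0.14, 0.086, 0.42 and -0.28 and 0.16, 0.36, 0.043, 0.28 and -0.031 in central ones. Its differences were 0.22 and 0.16, at a signal close to background.

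Ddit3, which encodes the factor CHOP, had log2 ratios of -0.050, -0.084 and 0.042 in normal and 0.015, -0.20, 0.23, -0.20 and 0.21 in dissected peripheral areas, and 0.27, -0.15, -0.26, -0.043 and -0.010 and 0.0016, -0.0043, 0.17, 0.082 and -0.11 in central ones. The groups overlap, and the differences of 0.041 (-0.25 to 0.34) and 0.067 (-0.19 to 0.32) were also read close to background. Trib3, a pseudokinase induced by ATF4 and CHOP, had -0.041, -0.10 and 0.30 in normal and 0.11, 0.27, 0.38, 0.54 and 0.10 in dissected peripheral areas, and 0.26, -0.17, -0.39, -0.044 and -0.28 and -0.14, 0.089, -0.31, -0.12 and 0.17 in central ones. It differed by 0.23 (-0.12 to 0.57) in the peripheral and 0.061 (-0.24 to 0.36) in the central area. Asns (asparagine synthetase, a target of ATF4) lay slightly below 0 in both areas, at -0.18 and -0.14. Chac1, a glutathione-degrading enzyme and also an ATF4 target, had the widest spread of all members, with differences of -0.63 (-1.74 to 0.48) and 0.90 (-0.062 to 1.86), and without dissected central 5 the central one was 0.48.

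The 3 translocon genes ranged from -0.035 to 0.47 in the peripheral and from -0.26 to 0.26 in the central area. Sec61b, a subunit of the SEC61 channel, had log2 ratios of -0.92, 0.15 and 0.27 in normal and 0.16, -1.13, -0.14, 0.30 and -0.20 in dissected peripheral areas, and 0.026, -0.083, 0.032, 0.22 and -0.37 and -0.57, -0.16, -0.35, 0.19 and -0.60 in central ones. Its differences were -0.035 (-0.67 to 0.60) and -0.26 (-0.81 to 0.29), and the peripheral one was -0.41 without normal peripheral 1. Ssr1, of the translocon-associated protein complex, had -1.04, 0.053 and -0.12 and 0.29, 0.29, -0.034, -0.054 and 0.0092 in the peripheral areas of normal and dissected thyroid, and 0.44, 0.25, 0.31, -0.32 and -0.013 and -0.18, 0.25, 0.15, 0.15 and 0.45 in the central areas. Its peripheral difference of 0.47 (-0.003 to 0.94) was 0.13 without normal peripheral 1, and a further probe gave -0.076. Sec61a1, the pore subunit, differed by 0.043 in the peripheral and 0.26 (0.0075 to 0.51) in the central area.

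In the central area the median difference was smaller. Of the 34 members, 26 were above 0 with a median of 0.10, where 48.7% of all genes were above 0 and their median was -0.0061. None passed the test, and none of the 14664 genes did (0%). At an unadjusted p under 0.05, Derl2, Herpud1 and Sec61a1 were higher and Atf6 was lower, 3 and 1 of 34, against 1.95% and 3.29% of all genes, or 5.24% in either direction. Single arrays moved these values: the median was 0.21 without normal central 1, 0.046 without normal central 5 and 0.052 without dissected central 3. The count of higher members was 5 without normal central 1 or dissected central 1, against 1.9% and 2.01% of all genes. The unadjusted p of Atf6 was no longer under 0.05 when any 1 of 8 arrays was left out. The branch medians were 0.12 for chaperones and folding, 0.27 for degradation, 0.061 for sensors, factors and targets, and 0.029 for the translocon.

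The central and peripheral comparisons share no array, though they share slides and the reference. Of the 34 members, 23 were above 0 in both, 6 in the peripheral area alone, 3 (Calr, Dnajc3 and Chac1) in the central area alone, and Asns and Sec61b were below 0 in both. The peripheral difference was the larger for 26 of the 34. The test of the difference between the areas itself gave a median of -0.20 (all genes -0.018), with 0 members called. At an unadjusted p under 0.05 it gave 3 members lower (Atf6, Hspa5 and Edem1) and 1 higher (Chac1), against 3.28% and 2.54% of all genes, or 5.82% in either direction. The median was -0.075 without normal central 1, and the count of lower members was 1 without normal central 1, normal peripheral 1 or dissected central 1, 5 without normal central 5 or dissected central 3, and 7 without normal peripheral 3. The unadjusted p of Chac1 here was over 0.05 when any 1 of 8 arrays was left out. Without normal peripheral 1, Atf6 (-1.90) and Chac1 (1.70) still had an unadjusted p under 0.05, while Hspa5 (-0.63) and Edem1 (-0.45) did not. The dimmer Atf6 probe gave 0.15 with all arrays. The larger peripheral difference was thus not shown to differ from the central one.

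**Figure D4:**
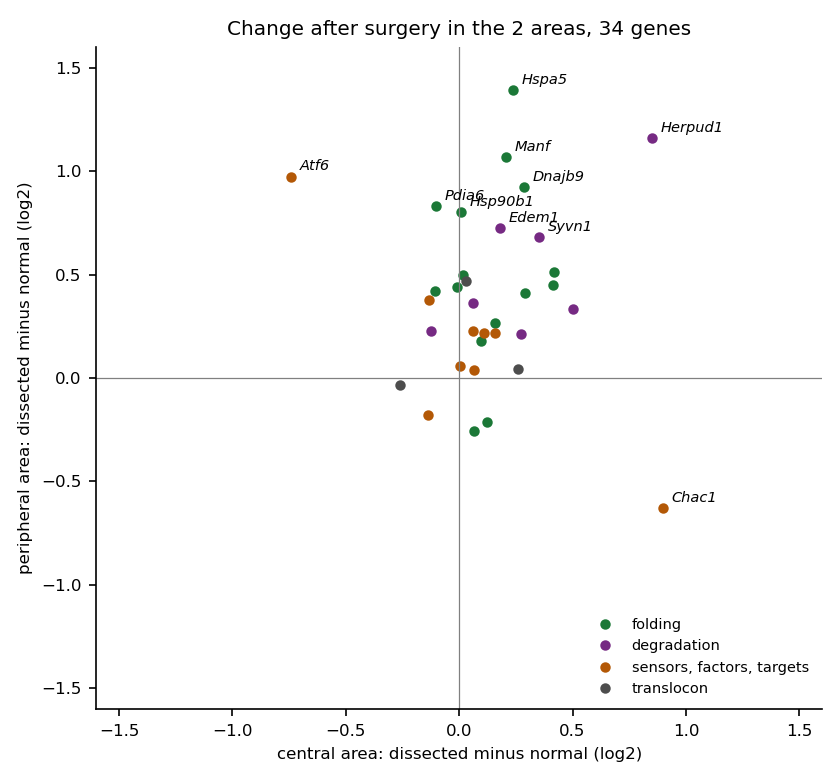
Log2 difference, dissected minus normal, in the central area (x axis) against that in the peripheral area (y axis) for the 34 tested genes, coloured by branch and named where either exceeds 0.65. Of the 34 points, 23 lie above 0 on both axes, Herpud1 is high on both axes, and Atf6 and Chac1 lie in opposite corners.

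Between the areas of normal thyroid, the differences of the members ranged from -0.90 (Chac1) to 0.94 (Pdia6), central minus peripheral, with Atf6 at 0.80 and Hspa5 at 0.76. Of 34, 22 had a higher central mean, the median difference being 0.089 (all genes: 52.3% and 0.014), and none was called, against 0.28% of all genes. At an unadjusted p under 0.05, Pdia6 (0.94), Canx (0.47) and Ssr1 (0.50) were higher in the central area and no member was lower, against 5.71% of all genes higher and 2.88% lower, 8.59% together. Further probes of Pdia6 that passed the filter gave 0.46 and -1.09, that of Ssr1 -0.084 and the dimmer one of Atf6 -0.027. With the mean of a gene's kept probes, 0 members were higher at that threshold, against 5.26% of all genes. No member's arrays were free of overlap here, against 4.86% of all genes. This comparison uses the same 3 normal peripheral arrays as the peripheral one above, so the low values of normal peripheral 1 enter both. Without that array Pdia6, Canx and Ssr1 differed by 0.37, 0.23 and 0.17, none with an unadjusted p under 0.05, and Atf6 (0.99) was the 1 member with one. The median was -0.0083 without normal central 1, 0.13 without normal central 2 and 0.17 without normal central 5. The count of higher members was 1 without normal central 1 or 3 and 5 without dissected central 3. It was 6 without normal central 5 and 7 without normal peripheral 3. In these runs 4.58% to 6.7% of all genes were higher at that threshold.

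Between the areas of dissected thyroid, which involve none of the normal arrays, 12 of 34 members had a higher central mean, the median difference being -0.068 (all genes: 49.5% and -0.0022). Leaving out each array in turn gave medians from -0.12 (without dissected central 3) to -0.0088 (without dissected central 1). None was called, against 0.586% of all genes. At an unadjusted p under 0.05, Atf6 (-0.91, -1.63 to -0.19), Eif2ak3 (-0.51, -0.92 to -0.11) and Trib3 (-0.34, -0.64 to -0.040), all of the branch of sensors, factors and targets, were lower in the central area and none was higher, against 2.93% of all genes lower and 4.5% higher, 7.43% together. The dimmer Atf6 probe gave 0.12 in this comparison, opposite in sign to the probe used. Again no member's arrays were free of overlap, against 1.67% of all genes. On each of the 5 slides Atf6, Eif2ak3, Manf and Dnajb11 were lower in the central than in the peripheral area of dissected thyroid. Their log2 differences ran from -1.97 to -0.40, -0.85 to -0.0086, -0.70 to -0.17 and -0.57 to -0.038, in that order. The share of all genes with 1 sign on all 5 slides was not counted, so nothing is read from these members' agreement. The F test among the 4 groups called no member either, against 1.06% of all genes. At an unadjusted p under 0.05 it held 6 members (Derl2, Herpud1, Edem1, Hspa5, Dnajb9 and Atf6), against 8.93% of all genes, and its smallest adjusted p among members was that of Derl2, 0.122.

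**Figure D5:**
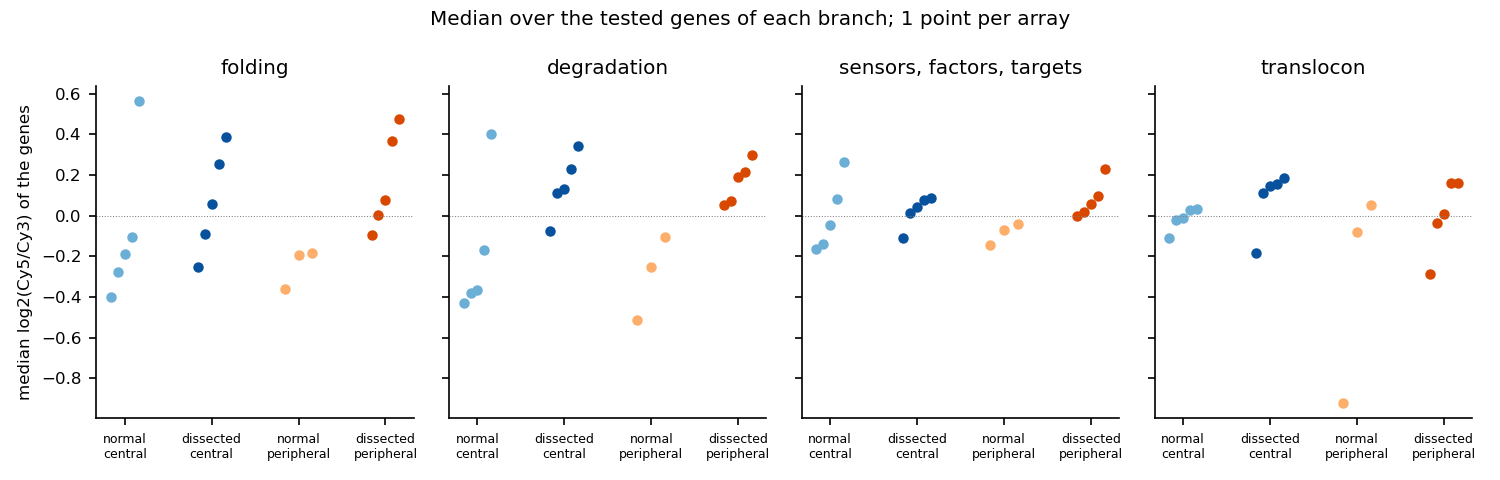
Median log2 ratio of Cy5 over Cy3 (y axis) over the tested genes of each branch, 1 point per array, by group (x axis). In the panels of folding, degradation and sensors, the medians of the dissected peripheral arrays all lie above those of the normal peripheral arrays. In the translocon panel the 2 groups overlap, and normal peripheral 1 stands apart at -0.92.

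Per array, the median over the 34 members was -0.12, -0.29 and -0.14 on normal peripheral arrays and ran from 0.00095 to 0.26 on dissected peripheral arrays, so these 2 groups did not overlap. On central arrays it ran from -0.28 to 0.40 in normal and from -0.085 to 0.27 in dissected thyroid, which overlap. Within the 3 slides that held both peripheral groups, the median difference was 0.19, 0.11 and 0.26, with 32, 22 and 28 of 34 members above 0, each from 1 array per group. On scan day 1 it was 0.25, from 1 normal and 2 dissected peripheral arrays, and on scan day 2 it was 0.24, from 2 and 3. For the central area, 4 of 5 slides gave a positive median, between 0.24 and 0.41, and 1 gave -0.51, and the scan days gave 0.29 and -0.051.

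The members with an ERSE or ERSE-II in their promoter were set beside the others with a promoter in the table. In the peripheral area the 11 with such a match had a median difference of 0.45 (range -0.25 to 1.39, 9 above 0) and the 18 tested members without one 0.25 (range -0.63 to 0.92, 15 above 0). In the central area the medians were 0.12 and 0.064. The ranges overlap, and Calr and Dnajc3, which carry the element, were the members of the chaperone branch below 0 in the peripheral area.

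Of 80 further genes of the same pathways, 72 were tested and none was called in any of the 5 comparisons. In the peripheral area, 40 of the 72 were above 0 after surgery, where 51.0% of all genes were, with a median of 0.087. At an unadjusted p under 0.05, 13 were higher and 1 lower, read against the 4.43% and 3.91% of all genes given above. The 13 included Nupr1 (0.77), a stress-induced transcriptional regulator, Mcfd2 (0.92), a partner of the cargo receptor LMAN1, the oligosaccharyl transferase subunit Rpn1 (0.92), the signal peptidase subunit Sec11a (0.72), the ER-associated degradation genes Selenok (0.72), Ube2g2 (0.65) and Ube2j1 (0.57), and the oxidative folding genes Ero1b (0.55) and Erp44 (0.47). Eif2ak4, the amino acid sensor GCN2, was the 1 lower (-0.61). By list, the medians were 0.33 for degradation, 0.15 for translocon, signal peptidase and oligosaccharyl transferase, 0.15 for oxidative folding, -0.098 for glycan handling and -0.12 for stress signalling and the integrated stress response. In the central area 35 of 72 were above 0, where 48.7% of all genes were, with a median of -0.0019. At that threshold 3 were higher and 1 lower, against 1.95% and 3.29% of all genes.

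Markers of cell types were set beside the same comparisons, and none was called after surgery in either area. In the peripheral area, 1 of 4 endothelial, 2 of 5 fibroblast and 1 of 3 fat markers were above 0. All 7 tested C cell markers were below 0 there, with a median of -1.05. Of these, 3 had an unadjusted p under 0.05 (limma), against 3.91% of all genes lower. Of 8 thyrocyte markers, 7 were above 0 with a median of 0.17. No thyrocyte marker, and none of the other lists, had an unadjusted p under 0.05 in that area. In the central area the 7 C cell markers were also all below 0, with a median of -0.72, and 3 of 8 thyrocyte markers were above 0. Summed Cy5 intensities of the lists were not normalised between arrays. That of the C cell list was 120834 to 234920 on normal and 63235 to 312501 on dissected peripheral arrays. Plasma cells also run a strong unfolded protein response. Of 8 of the 9 plasma and B cell markers found on the arrays, 0 to 3 were well above background on normal and 1 to 3 on dissected peripheral arrays. Their summed intensity was 714 to 1337 and 914 to 1947. Of the 3 that were tested, 1 was above 0 in the peripheral comparison, with a median of -0.18. Over all 18 arrays, Mzb1 was well above background on 15, Prdm1 on 14, Jchain on 4 (reaching an intensity of 1129), Ms4a1 and Irf4 on 2 each, and Cd79a and Tnfrsf17 on none. Skeletal muscle markers summed to 374 to 605 on normal and 636 to 6566 on dissected peripheral arrays, without overlap, and the 3 tested were above 0 in both areas, with medians of 0.24 in the peripheral and 0.39 in the central area. Macrophage markers summed to 4526 to 7323 on normal and 3699 to 40201 on dissected peripheral arrays, with 5 of 5 above 0 and a median difference of 0.14. The part of cell composition and of array strength in the members' differences was not tested.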

How the data were processed

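The members and gene lists were chosen with earlier results of these data known. Per the file headers, the deposited intensity values of both channels came from Agilent Feature Extraction 9.5.1.1 (8.5.1.1 per the submitters' processing notes), with flags for background, saturation, uniformity and controls. The deposited log10 ratio of the scanner program's processed signals and the authors' deposited value table of linear ratios, whose steps are not given in the sources used here and whose log2 correlated with the probe-centred log2 ratio at 0.65 to 0.87, served as alternatives. In R 4.3.3 with limma 3.58.1, intensities were corrected by normexp (offset 50) and normalised by loess within arrays, with control spots at weight 0. Probes with Cy5 well above background on at least 3 of 18 arrays were kept (19082), 1 per gene by highest mean intensity. Linear models with 4 group means and eBayes gave differences, and p-values were adjusted by Benjamini-Hochberg over 14664 genes. The script was tested on simulated data. Members shown on every array were the 3 smallest p in each comparison and 8 taken for their roles, plus Manf, added after its values were seen.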

Additional observations from a re-analysis of the deposited data

Results flagged for a closer look

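Within groups of 5, 2 of 63 sets of values had 1 array whose gap to its neighbour was a large share of the group's range, where chance would give about 1 in 20. Both were on dissected central 1, 1 of the 4 weakest arrays. The log2 ratio of Edem1 there was -0.48, below the other dissected central arrays, the nearest being -0.11. The median of the 3 translocon genes there was -0.18, and the nearest other array had 0.11.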

How the results depend on the processing

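No member was called under the reported setting or any of 34 alternatives (33 for the F test and the difference between areas), and the smallest adjusted p of any was 0.0583, in the F test. Some alternatives cannot change the median peripheral difference of the members: those leaving out a central array, keeping only the groups compared or applying Aquantile. That median (0.37) was positive in 34 of 34 alternatives, these included. It was 0.47 from the processed signals, 0.50 from the value table (where the median of all genes shifted to 0.11), 0.26 with the mean of a gene's probes, 0.25 and 0.24 on scan days 1 and 2 alone, and 0.26 to 0.42 when leaving out each array. The number of members higher at an unadjusted p under 0.05 was 12, against 4.43% of all genes. It was 7 against 6.04% from processed signals, 6 against 4.92% from Cy5 alone and 7 against 2.11% without the 4 weakest arrays. Of these, 7, 6 and 5 were among the 12, in that order. Leaving out each array gave 8 to 14, against 2.28% to 5.8%. Scan day 1 is not counted here, as it had 1 normal peripheral array. The median difference between areas (-0.20) was 0.058 on scan day 1 alone, where the normal peripheral group had 1 array, assumed to vary like the other groups. Leaving out each array gave -0.29 to -0.075 for it, and 0.046 to 0.21 for the central median. The labels do not say what a replicate number shares, though it matches a slide for all arrays but normal peripheral 3. Deviations of the 24 same-numbered pairs correlated at -0.071 to 0.29 (median 0.067), and those of other pairs at -0.24 to 0.14 (median -0.013). For pairs on 1 slide the median was 0.088, against -0.017 for other pairs. Not every same-numbered pair was above 0.1, so the numbers were not taken as a pairing. That rule cannot show that same-numbered areas were unrelated. With the replicate block the count of higher members stayed at 12 (11 of them shared), against 5.74% of all genes. With slide as a block it was 10, against 5.29%. The cause of these shifts was not tested. Aquantile leaves log2 ratios as they are by construction. Signal over background limits Edem2, Ppp1r15a, Atf4 and Ddit3.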
